A study of Homo sapiens with 13 samples.

Results

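Knockdown of FOXA1 in LNCaP-abl prostate cancer cells was read from 2 of the 13 RNA-seq libraries of the study, chosen by their labels: 1 library of cells transfected with FOXA1 siRNA (siFOXA1) and 1 library of cells transfected with control siRNA, labelled siControl2 (called the control). The other 11 libraries, each from 1 knockdown (siBRCA1, siBRCA2, siCTCF, siEED, siEZH2, siFOXM1, siKDM1A, siMALAT1, siPCAT1, siRAD21 and siSMARCA4), were used to show how far each gene moved without FOXA1 being targeted. They also entered the filter on low levels and the choice of genes in which siFOXA1 lay beyond all other libraries. Their median served as an alternative reference. LNCaP-abl is an androgen-independent line derived from LNCaP by long culture without androgen. All 13 libraries shared the cell line, a passage number between 53 and 60, phenol-red-free medium with 10% charcoal-stripped serum (which is depleted of steroid hormones), RNAiMAX transfection with a pool of siRNAs per target, and harvest after 72 h. Each group held 1 library, so no difference below has a replicate check or a test, and an effect of FOXA1 loss cannot be told apart from an effect of the siRNA pool or of the single culture. Of 22613 entries in the files, 15786 genes with a mean of at least 0.5 FPKM, a level corrected for transcript length and library size, over the 13 libraries were described.

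FOXA1 is a pioneer transcription factor: its forkhead domain binds DNA wrapped on nucleosomes and opens chromatin for other factors. In prostate luminal cells it binds at many enhancers together with factors such as HOXB13 and GATA2, among them enhancers of androgen-responsive genes. Loss of FOXA1 has been linked in prostate tumours to loss of luminal character.

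A difference below is siFOXA1 minus control on the scale log2(FPKM + 1), on which 1 unit is a 2-fold change of FPKM + 1. This scale understates changes of genes near 0 FPKM. Across the 15786 genes the median difference was 0.02, the quartiles were -0.26 and 0.30, and 78.0% of genes differed by less than 1.5-fold. At least 2-fold higher levels in siFOXA1 were found for 555 genes (3.52%) and at least 2-fold lower levels for 666 (4.22%), which are the backgrounds for every list count below. SiFOXA1 was the highest of the 13 libraries in 15.7% of genes (2479) and the lowest in 14.3% (2259). In siFOXM1, set against the same control, 2.59% of genes were at least 2-fold higher and 3.6% lower.

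FOXA1 itself was at 60.6 FPKM in siFOXA1, against 137 in the control and 91.2 to 175 (median 132) in the other 11 knockdowns. Its difference from the control was -1.16, and siFOXA1 was the lowest of the 13 libraries, so transcript was reduced but still well detected. The paralogue FOXA2 was low everywhere, at 0.202 FPKM against 0.756 in the control and 0.440 to 0.998 in the others. Among 13 measured genes of the forkhead list, 2 were at least 2-fold lower (FOXM1 and FOXA1) and 1 was higher. The list also holds FOXRED1, which encodes an oxidoreductase and no forkhead factor. FOXN3, which encodes a forkhead repressor, was the higher one, at 16.9 FPKM against 7.54 in the control and at most 10.9 elsewhere (difference 1.07). FOXD1 was at 2.52 against 5.14 (-0.80) and FOXP1 at 1.44 against 2.92 (-0.69). For both, siFOXA1 lay below all 12 other libraries, though short of a 2-fold change from the control. The cell cycle factor FOXM1, itself the target of another library, was at 1.75 against 20.1 FPKM (-2.94), and at 0.474 in siFOXM1. Both siFOXA1 and siFOXM1 therefore had a low FOXM1 level, and siFOXM1 values are given beside many of the results below.

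The cells kept transcripts of the luminal keratins after FOXA1 knockdown. Of 12 fixed luminal prostate markers 10 passed the filter. Of these 10, 3 were at least 2-fold lower, SLC45A3 and ACPP (described below) among them, and 1 was higher. For 2 of the 10, siFOXA1 lay at least 1 log2 unit below all other libraries. The summed level of the 10 was 1122 FPKM in siFOXA1, 943 in the control and 824 to 1322 in the others. KRT8 and KRT18, the simple-epithelial keratins, were at 223 and 170 FPKM against 127 and 136. The kallikreins KLK2 and KLK3 (prostate-specific antigen), classic androgen-induced genes, were below the filter in this androgen-free culture, at 0.395 and 0.133 FPKM in siFOXA1 and 0.214 and 0.0513 in the control. Markers of other cell types were far below the luminal sum, but the basal sum was higher than in any other library. The summed level of 3 measured basal markers was 33.6 FPKM against 20.4 (others 14.9 to 30.5). Of these, the cytoskeletal linker DST was at 13.9 against 4.70 (1.39; others at most 7.80), the integrin ITGA6 at 16.2 against 11.6 and ITGB4 at 3.43 against 4.13, while the basal keratin KRT14 was below the filter on the mean, at 0.830 FPKM in siFOXA1 and at most 0.128 elsewhere. The 3 measured immune markers summed to 13.3 FPKM against 9.59, within the others (8.96 to 16.1). The leukocyte phosphatase PTPRC was at 0.1004 against 0.946 FPKM, the lysosomal protein CD68 at 9.15 against 5.19 and lysozyme, LYZ, at 4.09 against 3.45. Summed fibroblast and muscle markers were at 7.01 against 5.60 (others 3.51 to 7.64). The part of other cell types in the results was not tested. Of 25 neuroendocrine genes 5 passed the filter, and 0 of the 5 changed 2-fold.

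**Figure D1:**
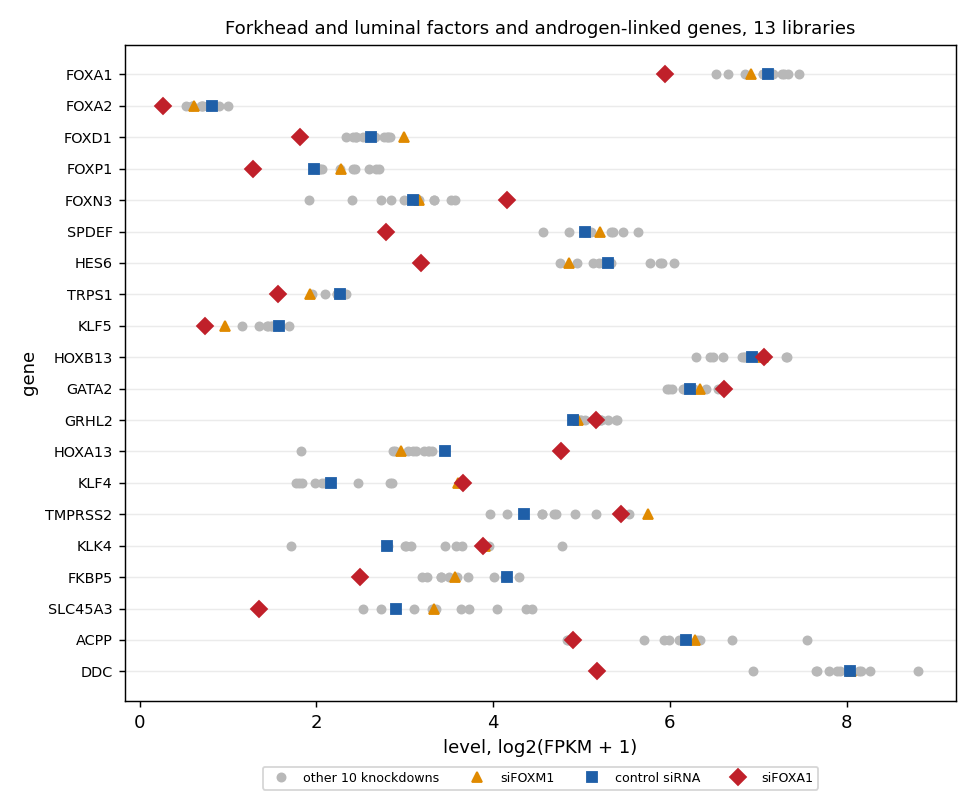
Levels of forkhead and luminal transcription factors and androgen-linked genes on the log2(FPKM + 1) axis, with 1 point for each of the 13 libraries (red diamonds siFOXA1, blue squares control, orange triangles siFOXM1, grey circles the other 10 knockdowns). SiFOXA1 lies to the left of all other libraries for SPDEF, HES6, FKBP5, SLC45A3 and DDC, within them for HOXB13 and GRHL2, and to the right of them for HOXA13 and FOXN3.

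Among luminal transcription factors SPDEF was far lower after FOXA1 knockdown, while HOXB13 and GRHL2 were close to control. Of 27 measured list members, 2 were at least 2-fold lower, 2 were at least 2-fold higher and 23 lay between, with a median difference of -0.07. The list also holds ESRP1 and ESRP2, which are splicing regulators and not transcription factors. SPDEF, an ETS factor of secretory luminal epithelium, was at 5.92 FPKM in siFOXA1, 31.9 in the control and 22.6 to 48.9 (median 33.5) in the others, a difference of -2.25. For this gene the siFOXA1 value lay more than 1 log2 unit below each of the 12 other libraries, with no overlap. By contrast, HOXB13 and GRHL2, both factors of luminal epithelium, were close to control. HOXB13 was at 133 FPKM against 121 (0.13) and GRHL2 at 34.96 against 28.9 (0.27), each inside the range of the other knockdowns. GATA2 was at 97.2 against 74.3 (0.38), the highest of the 13 libraries by a small margin over 92.6. The factors KLF5 (0.673 against 1.99), TRPS1 (1.95 against 3.81) and CREB3L4 (30.8 against 46.8) were the lowest of 13, with differences of -0.84, -0.71 and -0.59. HOXA13, a posterior homeobox gene, was at 26.3 FPKM against 10.0 in the control and 2.55 to 8.92 elsewhere (1.31), and KLF4, a differentiation factor, was at 11.6 against 3.49 (1.49). The KLF4 level was shared with siFOXM1, at 11.1 FPKM, whereas HOXA13 was set apart from every other library.

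SPDEF is shown by the 250 bases before its RefSeq transcription start (GRCh38.p14, chr6:34556330-34556579, minus strand). It was chosen because, among the matched genes set apart below (defined later), it was the 1 with a forkhead match. The match shown therefore follows from the choice. Capitals mark a match to a core forkhead motif, searched on both strands as TGTTTAC or TATTTAC, which begins 49 bases before the start.
SPDEF: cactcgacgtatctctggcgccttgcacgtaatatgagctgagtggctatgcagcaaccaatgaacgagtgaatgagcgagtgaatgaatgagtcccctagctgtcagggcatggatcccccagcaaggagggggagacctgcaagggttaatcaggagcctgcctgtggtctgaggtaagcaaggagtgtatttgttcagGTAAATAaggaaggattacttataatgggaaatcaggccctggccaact
The same search found a forkhead match in the 300-base promoters (250 bases before the start and 50 after) of 1 of 24 matched genes set apart below (4.17%) and 2 of 47 set apart above (4.26%). In all 27305 promoters of the table the share was 6.05%, and in promoters of measured genes 3.65%. Enhancers, where most FOXA1 binding is known to occur, lie outside these windows.

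Genes that respond to androgen in LNCaP cells split into both directions. Of 31 measured genes induced by androgen, 5 were at least 2-fold lower (among them CENPN, FKBP5, SLC45A3 and ACPP) and 2 were at least 2-fold higher (KLK4 and TMPRSS2), with a median of -0.04. FKBP5, a chaperone of steroid receptors, was at 4.61 FPKM against 16.8 in the control and 8.18 to 18.6 in the others (-1.67). SLC45A3, the prostate membrane protein prostein, was at 1.55 against 6.44 (-1.55), with all other knockdowns between 4.75 and 20.7. ACPP, prostatic acid phosphatase, was at 28.9 against 71.8 (-1.28), but here the range of the others (27.6 to 186) reached as low. TMPRSS2, a membrane serine protease, was at 42.6 FPKM against 19.4 (1.09) and KLK4 at 13.8 against 5.98 (1.09). Those 2 lay within the other knockdowns, which reached 52.8 and 26.5 FPKM, and neither was 2-fold higher against the median of the other 11. CENPN, a centromere protein, was also low in siFOXM1 (-1.24).

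Genes repressed by androgen were lower as a list. Of 14 measured, 4 were at least 2-fold lower and 1 was higher. Their median difference was -0.75, below the medians of -0.15 to 0.34 in the other 11 knockdowns. DDC, aromatic L-amino acid decarboxylase, which makes dopamine and serotonin, was at 35.1 FPKM against 263 in the control and 122 to 447 in the others (-2.87). GCG, the glucagon precursor gene, was at 1.19 against 16.6 (-3.01), although siFOXM1 was also low (-2.20) and the lowest other library had 1.18. The UDP-glucuronosyltransferases UGT2B11, UGT2B28 and UGT2B7, enzymes of steroid inactivation, were at 0.184, 0.505 and 0.662 FPKM against 2.33, 1.80 and 2.08, and siFOXA1 was below the other knockdowns for each. These paralogues are nearly identical in sequence, so the split of reads between them is uncertain. CCND1, cyclin D1, was at 20.0 against 47.6 (-1.21), with no other library below 34.6. CDKN1A, the cell cycle inhibitor p21, was the member 2-fold higher, at 82.6 against 22.5 (1.83), but the other knockdowns had 24.99 to 440 (median 79.7), so that siFOXA1 was near the middle of the knockdowns and the control was the lowest library.

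The glucocorticoid receptor gene was also lower, and its responsive genes moved in both directions. NR3C1, the glucocorticoid receptor, was at 0.889 FPKM in siFOXA1 against 5.999 in the control (-1.89). The other 11 knockdowns had a median of 1.78 and a range of 1.16 to 7.11, so most of them were also low. Of 18 genes in the glucocorticoid list, which includes NR3C1 itself, 3 were at least 2-fold lower, NR3C1 among them. At least 2-fold higher were 5, but against the median of the other 11 knockdowns 1 was higher. TSC22D3 (GILZ), a mediator of glucocorticoid action, was at 7.66 against 25.5 (-1.61), below every other library (12.7 to 77.4). GADD45B, a stress gene, was at 10.7 against 2.20 (1.87), above every other library (at most 6.002).

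Lower levels were also found for a secreted luminal peptide and for 3 genes of the Notch pathway. TFF1, a trefoil peptide of secretory epithelia, was at 1.11 FPKM against 6.88 in the control and 3.30 to 29.6 (median 20.3) elsewhere (-1.90). Of 13 measured secreted epithelial genes, TFF1 was the 1 at least 2-fold lower, and S100A9 and SLPI were the 2 higher. S100A9, a calprotectin subunit of squamous and myeloid cells, was at 12.1 FPKM against 0.202, with no other library above 1.16. SLPI, a protease inhibitor, was at 13.3 against 3.41 (1.70) and within the others, which reached 28.8. Notch signalling passes from ligands such as JAG1 through Notch receptors to targets of the HES and HEY families. Of 17 measured Notch pathway genes 3 were at least 2-fold lower and 0 higher, and the median of -0.61 was below those of the other 11 knockdowns (-0.39 to -0.03). Set against the median of the other 11 libraries rather than the control, that list median was -0.18. The ligand JAG1 was at 18.4 against 60.1 (-1.66; others 15.7 to 68.5) and the feedback regulator NRARP at 0.946 against 3.47 (-1.20; others 1.44 to 2.93). HES6, which opposes HES1 and promotes neuronal differentiation elsewhere, was at 8.07 against 38.3 (-2.12), with all others between 26.1 and 65.4. The target HEY1 had the opposite sign, at 6.53 against 3.43 (0.76).

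Epithelial junction and keratin genes stayed expressed, and 2 of 28 were at least 2-fold higher (1 against the median of the other 11 knockdowns). KRT19 was at 12.9 against 2.71 FPKM (1.91) and CLDN4, a tight junction claudin, at 134 against 51.6 (1.36). Both were also higher in siFOXM1, by 2.29 and 1.20. E-cadherin, CDH1, was at 87.3 FPKM against 135 (-0.62), just under the lowest other library (88.5). Of 15 mesenchymal and matrix genes 0 were 2-fold higher, and TNC (2.18 against 7.80) and COL5A2 (5.53 against 12.6) were the 2 lower. VIM, vimentin, was at 1.10 against 1.15 FPKM.

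**Figure D2:**
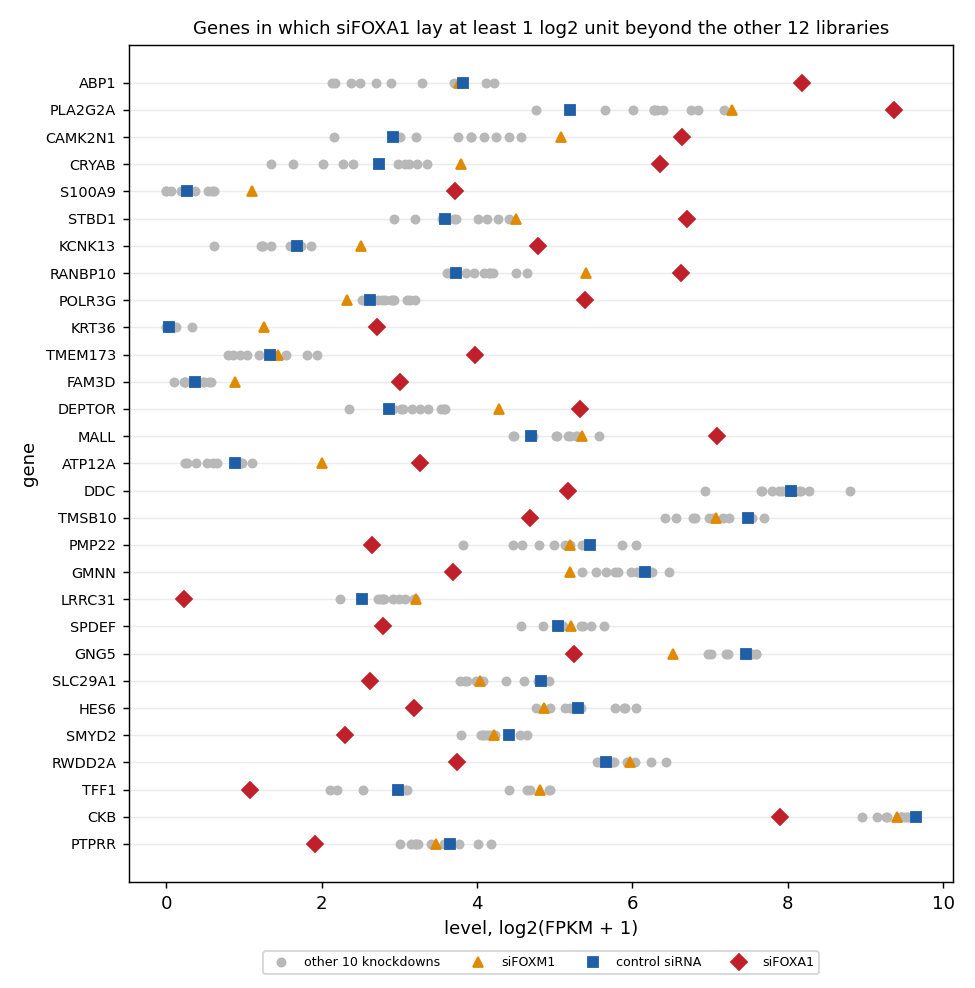
Genes with usable symbols in which siFOXA1 lay at least 1 log2 unit above (upper 15) or below (lower 14) all other 12 libraries, ordered by the difference from control, with 1 point for each library on the log2(FPKM + 1) axis (red diamonds siFOXA1, blue squares control, orange triangles siFOXM1, grey circles the other 10 knockdowns). The gap between the red diamond and all other points is the rule that chose the genes.

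Genes in which siFOXA1 stood apart were found by asking for at least 1 log2 unit between siFOXA1 and the nearest of the other 12 libraries. Above all others lay 78 genes (0.494%) and below all others 38 (0.241%), of which 67 and 28 carry a symbol that is neither an assembly or Ensembl identifier nor an antisense or read-through name. These counts follow from the rule, and the members' separation is therefore a description. A further 35 genes lay between 0.9 and 1 log2 unit beyond the others, among them BCL2L11, with a gap of 0.99.

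The 15 genes with the highest differences among those set apart above had varied known roles. SiFOXM1 was the next highest library for 35 of the 67 genes with a usable symbol, and in 10 of them it was itself at least 2-fold above the control. Of the 28 genes set apart below, 0 were at least 2-fold lower in siFOXM1. The rule itself limits both siFOXM1 counts, because siFOXA1 had to lie at least 1 log2 unit beyond siFOXM1. ABP1 (now AOC1), diamine oxidase, which degrades histamine and polyamines, was at 291 FPKM against 13.1 in the control and at most 17.6 in any other library (4.37). PLA2G2A, secreted phospholipase A2, was at 662 against 35.7, with the highest other library, siFOXM1, at 155 (4.17). SELENBP1, a selenium-binding methanethiol oxidase named here after its values were seen for its abundance, reached 5245 FPKM against 1158. CRYAB, a small heat shock protein, was at 80.6 against 5.66 FPKM (3.62), with siFOXM1 at 12.8. The hair keratin KRT36 was at 5.53 against 0.0280 (2.67), the gut cytokine FAM3D at 7.06 against 0.293 (2.64) and the proton pump subunit ATP12A at 8.65 against 0.846 (2.39). In siFOXM1 these 3 were at 1.38, 0.847 and 3.01 FPKM. CAMK2N1, an inhibitor of CaM kinase II, was at 98.4 against 6.59 (3.71), and DEPTOR, which binds and inhibits mTOR, at 38.9 against 6.28 (2.45). Both were also at least 2-fold higher in siFOXM1, at 32.9 and 18.5 FPKM (2.16 and 1.42). STBD1, a glycogen-binding protein, was at 103 against 11.1 (3.12), the RNA polymerase III subunit POLR3G at 40.8 against 5.15 (2.77) and the raft protein MALL at 136 against 24.98 (2.39).

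Below all other libraries, DDC, SPDEF, HES6 and TFF1, described above, were joined by genes with other roles. TMSB10, an actin-binding thymosin, was at 24.6 FPKM against 179 (-2.81; others 84.6 to 206), and the myelin protein gene PMP22 at 5.25 against 42.8 (-2.81; others 13.1 to 65.1). GMNN, geminin, the inhibitor of replication licensing, was at 11.9 against 70.6 (-2.47). The next lowest library was siFOXM1, at 35.6 (-0.97). SLC29A1, the nucleoside transporter ENT1, was at 5.15 against 27.4 (-2.21), and SMYD2, a lysine methyltransferase, at 3.94 against 20.3 (-2.11). CKB, brain-type creatine kinase, was at 237 against 803 (-1.76), and PTPRR, a phosphatase of MAP kinases, at 2.76 against 11.6 (-1.75). GNG5, a G protein gamma subunit, was at 36.9 against 175 (-2.21), with siFOXM1 next lowest at 91.1 (-0.93). LRRC31 was almost lost, at 0.172 against 4.73 FPKM with the others at 3.71 to 8.27.

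**Figure D3:**
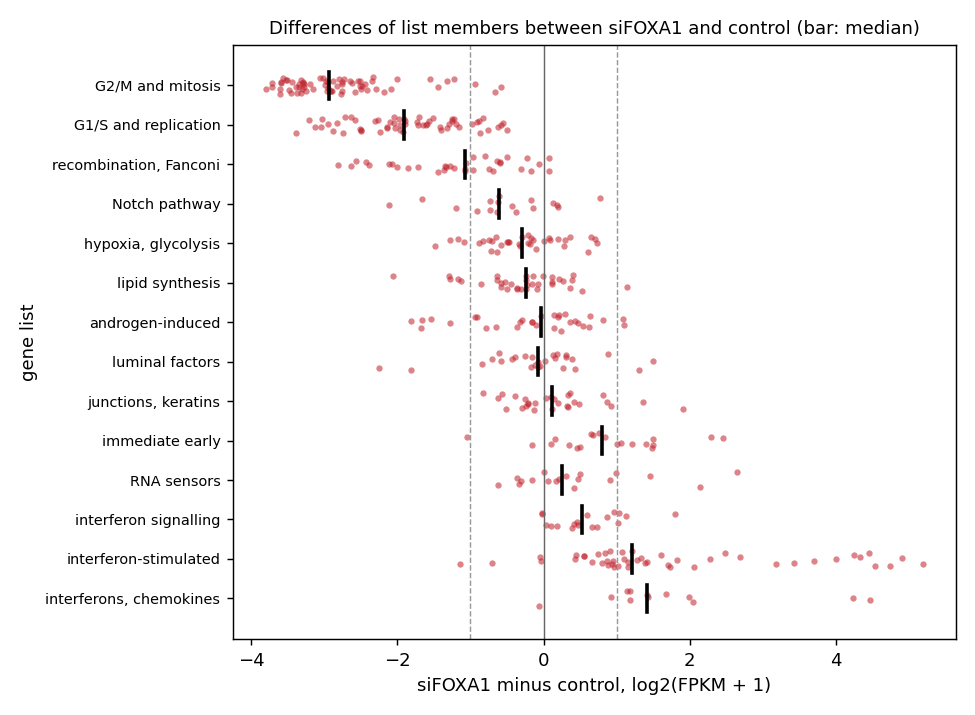
Difference of each measured list member between siFOXA1 and control on the log2(FPKM + 1) scale, with 1 dot for each gene, a black bar at the list median and dashed lines at a 2-fold change. G2/M and mitosis genes centre on -2.94, androgen-induced genes on -0.04 and interferon-stimulated genes on 1.21.

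Cell cycle genes were lower in siFOXA1 than in the control, and also in other knockdowns, among them siFOXM1, siEZH2 and siCTCF. Of 68 genes of G2/M and mitosis, 65 were lower by 2-fold or more, and the list median was -2.94 (siFOXM1 -2.90, siEZH2 -2.65, siCTCF -2.28). The exceptions, which did not reach 2-fold, were the checkpoint gene BUB3 (-0.58), the kinetochore gene SKA1 (-0.67) and the phosphatase gene CDC25B (-0.94). Of 58 genes of G1/S and replication 48 were at least 2-fold lower (median -1.91, siFOXM1 -1.83, siEZH2 -1.63, siCTCF -1.45). Of 34 genes of homologous recombination and the Fanconi pathway 19 were lower (median -1.08, siFOXM1 -1.26, siCTCF -1.10, siEZH2 -0.98). The control was the highest library for TOP2A, CDC20 and HMMR. Against the median of the other 11 knockdowns the lower counts were 60 of 68, 18 of 58 and 5 of 34. The number of cycling cells was not measured, so fewer cycling cells and less RNA per cell cannot be told apart.

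TOP2A, DNA topoisomerase II alpha, was at 1.44 FPKM against 32.9 in the control, with the others at 2.11 to 24.1 (median 11.04). CDC20, the activator of the anaphase-promoting complex, was at 3.998 against 64.5 (others 4.54 to 54.5) and the spindle-associated HMMR at 1.998 against 38.3 (others 3.03 to 33.7). In all 3, siFOXA1 was the lowest library and siFOXM1 the next, at the foot of a continuous range. Their promoters (250 bases before the RefSeq start, GRCh38.p14) are printed because this group moved together. They were taken in order of difference from list members whose window held the element marked below. A match in each printed window therefore follows from the choice. TOP2A lies at chr17:40417897-40418146 on the minus strand, CDC20 at chr1:43358731-43358980 and HMMR at chr5:163460382-163460631 on the plus strand. Capitals mark the CHR element (cell cycle genes homology region, TTTGAA or TTCGAA on either strand), the known site of the MuvB complex, to which FOXM1 is recruited.
TOP2A: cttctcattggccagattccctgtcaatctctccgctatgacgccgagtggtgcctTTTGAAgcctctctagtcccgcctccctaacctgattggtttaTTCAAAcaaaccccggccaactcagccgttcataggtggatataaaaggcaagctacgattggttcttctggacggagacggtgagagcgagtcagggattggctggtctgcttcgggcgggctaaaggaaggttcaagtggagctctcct
CDC20: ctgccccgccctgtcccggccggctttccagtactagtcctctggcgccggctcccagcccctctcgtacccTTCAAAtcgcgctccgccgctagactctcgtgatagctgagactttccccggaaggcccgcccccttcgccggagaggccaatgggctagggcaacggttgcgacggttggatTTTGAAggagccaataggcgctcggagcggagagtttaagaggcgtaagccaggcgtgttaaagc
HMMR: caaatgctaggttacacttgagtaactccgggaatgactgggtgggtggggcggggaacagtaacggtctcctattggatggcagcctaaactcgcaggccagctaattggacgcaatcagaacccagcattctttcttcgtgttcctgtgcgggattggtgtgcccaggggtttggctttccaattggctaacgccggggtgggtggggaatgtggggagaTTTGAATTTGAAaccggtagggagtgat
Each of these 3 windows holds 2 CHR matches. A CHR match was present in 44 of 59 matched G2/M promoters (74.6%), against 16.6% of all 27305 promoters and 11.1% of 10292 promoters of measured genes. CCAAT on either strand was present in 42 of the 59 (71.2%), against 35.7% of all promoters.

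For G1/S genes, TYMS, thymidylate synthase, was at 2.27 FPKM against 26.0, and CDC45, a subunit of the replicative helicase, at 0.695 against 13.8. The others ranged from 2.55 to 22.6 and from 0.485 to 11.8 FPKM. TYMS (chr18:657403-657652, plus strand) and CDC45 (chr22:19479670-19479919, plus strand) are shown with an E2F motif in capitals, searched as TTCCCGC or TTTGGCG on either strand. Both were taken in order of difference from list members whose window held this motif.
TYMS: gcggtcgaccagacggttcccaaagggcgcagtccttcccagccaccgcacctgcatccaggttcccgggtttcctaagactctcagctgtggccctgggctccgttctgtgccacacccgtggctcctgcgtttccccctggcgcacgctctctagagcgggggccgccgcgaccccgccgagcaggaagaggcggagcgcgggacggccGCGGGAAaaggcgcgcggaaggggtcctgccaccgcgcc
CDC45: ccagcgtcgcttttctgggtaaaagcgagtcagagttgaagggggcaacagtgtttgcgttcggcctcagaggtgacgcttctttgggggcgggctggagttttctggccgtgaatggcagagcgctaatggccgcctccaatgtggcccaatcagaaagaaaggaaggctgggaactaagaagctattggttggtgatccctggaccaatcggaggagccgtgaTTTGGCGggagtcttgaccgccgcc
The motif was found in 30 of 49 matched G1/S promoters (61.2%), against 8.28% of all promoters and 13% of those of measured genes. The CHR element occurred in 4 of the 49 (8.16%), against 74.6% in the G2/M list.

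Interferon-stimulated genes were higher in siFOXA1 than in the control, and higher still in siFOXM1. Of 47 measured interferon-stimulated effectors 29 were at least 2-fold higher, 1 was lower (LY6E, -1.14) and 17 lay between. The median was 1.21 in siFOXA1, 2.17 in siFOXM1 and -0.07 to 0.35 in the other 10 knockdowns. IFI27, a mitochondrial interferon-induced protein, was at 21.7 FPKM against 0.424 in the control and 50.1 in siFOXM1. The tetherin gene BST2 was at 14.3 against 0.695 (3.18), OAS1, which makes the activator of RNase L, at 23.4 against 1.28 (3.42), and RSAD2 (viperin) at 36.5 against 0.967 (4.25). MX1, a dynamin-like antiviral GTPase, was at 1.11 against 1.15 and at most 1.53 in any library. Among secreted ligands, IFNL1, a type III interferon, was at 3.20 FPKM against 0.0145 and the chemokine CXCL11 at 18.7 against 0.0491. Of 12 interferon and chemokine genes 10 were at least 2-fold higher (median 1.42, siFOXM1 2.51). The filter counts siFOXA1 and siFOXM1, so genes high in these libraries alone can pass it through them. Without the filter, 10 of 17 interferon and chemokine genes were at least 2-fold higher (median 1.18). For the effectors it was 29 of 51 (median 1.16). Values of the lambda interferons IFNL2 and IFNL3, which are near-identical copies, are uncertain.

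Upstream of these effectors, RNA sensors and interferon signalling genes moved less. Of 18 sensors and adaptors 3 were at least 2-fold higher. DDX58 (RIG-I) was at 14.1 against 2.43 FPKM and IFIH1 (MDA5) at 10.3 against 3.12, while siFOXM1 had the highest of all levels, 28.4 and 23.2. TMEM173 (STING), the adaptor of cytosolic DNA sensing, differed from them. It was at 14.8 FPKM in siFOXA1, 1.51 in the control and 0.731 to 2.83 (median 1.54) in the others, a difference of 2.65 against 0.10 in siFOXM1. TRIM25, the ubiquitin ligase that activates RIG-I, was likewise set apart, at 130 against 38.4 and at most 52.5 elsewhere (1.74). Of 18 signalling genes 4 were at least 2-fold higher, among them IRF9 (17.3 against 4.28), a subunit of the factor ISGF3, and the interferon gamma receptor chains IFNGR1 (24.3 against 10.6) and IFNGR2 (36.8 against 17.7). Against the median of the other 11 knockdowns 1 of the 18 was higher. In MHC class I presentation, 1 of 10 measured genes passed 2-fold (PSMB10, 1.11, and 1.27 in siFOXM1). Another 10 of the 20 listed genes had no entry in the data. The 10 measured held no HLA class I heavy chain and no TAP transporter subunit, so those were not described.

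The promoters of IFI6, IFIT1 and CXCL10 are shown because ISGF3 is known to act at a defined element, the ISRE, marked in capitals (GAAA, any 2 bases and GAAA again, on either strand). These genes were taken in order of difference from members of their lists whose window held a match, so a match follows from the choice. The promoters lie at chr1:27672193-27672442 (minus strand), chr10:89392373-89392622 (plus strand) and chr4:76023498-76023747 (minus strand) of GRCh38.p14, with 3, 2 and 1 matches.
IFI6: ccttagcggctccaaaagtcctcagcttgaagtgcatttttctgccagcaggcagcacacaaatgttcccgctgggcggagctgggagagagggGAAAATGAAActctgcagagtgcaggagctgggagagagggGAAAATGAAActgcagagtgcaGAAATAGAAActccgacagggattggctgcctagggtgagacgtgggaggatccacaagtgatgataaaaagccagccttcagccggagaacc
IFIT1: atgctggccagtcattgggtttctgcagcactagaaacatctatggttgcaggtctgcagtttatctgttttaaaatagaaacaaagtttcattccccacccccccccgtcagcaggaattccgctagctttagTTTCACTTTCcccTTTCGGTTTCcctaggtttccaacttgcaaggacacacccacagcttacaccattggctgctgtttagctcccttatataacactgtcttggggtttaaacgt
CXCL10: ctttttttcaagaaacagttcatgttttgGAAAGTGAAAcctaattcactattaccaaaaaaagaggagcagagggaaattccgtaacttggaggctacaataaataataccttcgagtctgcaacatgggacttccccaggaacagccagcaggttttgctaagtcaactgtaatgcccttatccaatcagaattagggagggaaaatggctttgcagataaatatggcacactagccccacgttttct
An ISRE match was found in 24 of 36 matched promoters of the effector list (66.7%), against 3.65% of all promoters and 2.64% of those of measured genes. Of the 47 matched promoters of genes set apart above, 0 held one. The lists were assembled from known target genes, so these shares describe the lists and not the response.

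**Figure D4:**
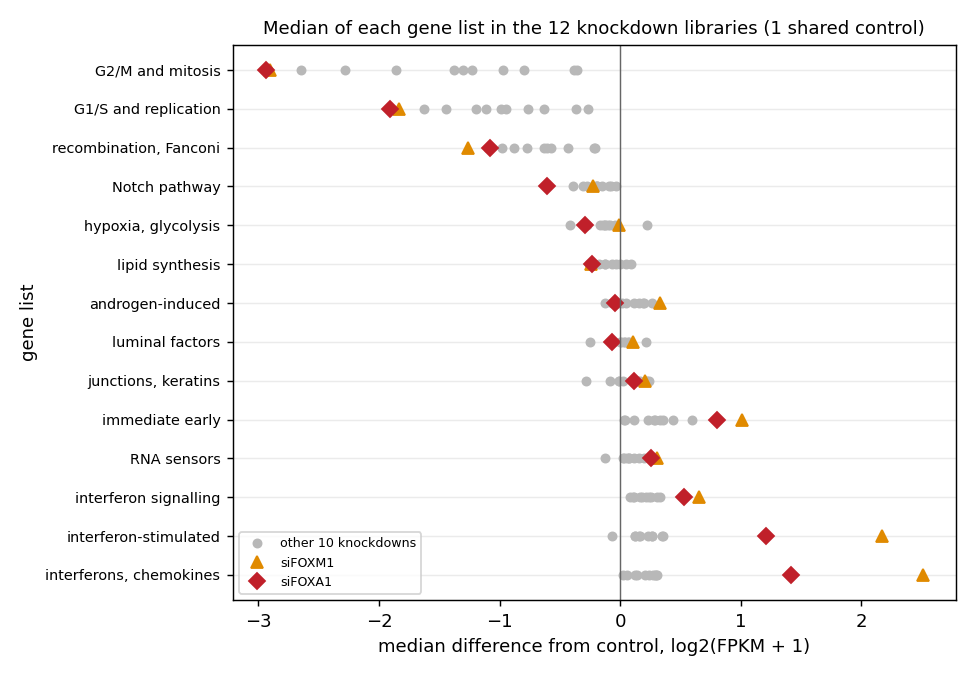
Median difference from the control of 14 gene lists in each of the 12 knockdown libraries on the log2(FPKM + 1) scale (red diamonds siFOXA1, orange triangles siFOXM1, grey circles the other 10 knockdowns), which all share 1 control. SiFOXA1 and siFOXM1 lie close together for G2/M genes (-2.94 and -2.90, with siEZH2 next at -2.65) and apart for interferon-stimulated genes (1.21 and 2.17).

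Immediate early genes, which respond to growth factors and stress within minutes, were also higher. Of 20 measured, 8 were at least 2-fold higher and 1 was lower, with a median of 0.80 (siFOXM1 1.01), while against the median of the other 11 knockdowns 4 were higher and the median was 0.35. FOS was at 9.38 FPKM against 0.904 (others 1.21 to 13.3) and ATF3 at 46.6 against 8.76 (others 10.9 to 53.1), so for both the control was the lowest library.

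Metabolic genes moved in smaller numbers. Of 35 genes of hypoxia and glycolysis 4 were at least 2-fold lower and 0 higher, but 1 was lower against the median of the other 11 knockdowns. LDHA, lactate dehydrogenase A, was at 108 FPKM against 306 (-1.49; others 48.6 to 411). HIF1A, the hypoxia factor subunit, was at 9.71 against 23.1 (-1.17), below all other libraries (10.5 to 26.3). Of 35 genes of cholesterol and fatty acid synthesis 5 were at least 2-fold lower and 1 was higher, and again 1 was lower against the median of the other 11. The sterol transfer protein gene STARD4 was at 2.49 against 13.5 (-2.06; others 5.82 to 24.9) and INSIG1, a sterol sensor partner, at 48.4 against 120 (-1.29; others 60.3 to 122). ACLY, which makes cytosolic acetyl-CoA, was at 55.6 against 122 (-1.12; others 84.2 to 140), and TM7SF2, a sterol reductase, was the higher one, at 259 against 117 (1.14).

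Chromatin regulators and corepressors were slightly low as a list. The median over 27 measured genes was -0.37, below those of the other 11 knockdowns (-0.27 to 0.08), and 3 were at least 2-fold lower, while 0 were higher (1 lower and 1 higher against the median of the other 11). TLE3, a Groucho corepressor, was at 19.1 FPKM against 40.8 (-1.06), with all others between 26.3 and 70.9. EZH2 was at 5.32 against 16.4 (-1.46) and the cohesin subunit RAD21 at 41.5 against 88.5 (-1.07). Both were also low in siFOXM1 (-1.26 and -0.95), and EZH2 and RAD21 are the targets of their own libraries.

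Several genes set apart above were neighbours on the chromosome. The 12635 measured genes with a usable symbol and a known place were put in RefSeq order (GRCh38.p14, used for order alone because the files were made on hg19). Runs of at least 3 adjacent genes, each at least 0.5 log2 above or below all other 12 libraries, were counted. Other measured entries were left out and may lie between genes called adjacent. Run genes were chosen after their values were seen. SiFOXA1 had 6 runs with 24 genes, all of them above. SiFOXM1 had 7 runs and siEZH2 had 2, and the other 10 libraries, the control included, had 0. The siEZH2 runs held mostly genes of the GAGE family, and those of siFOXM1 included the IFIT and OAS families. How many genes of each library lay past this threshold was not counted, so the run counts have no background. With a threshold of 0.25 siFOXA1 had 24 runs, 7 of them below, and with 0.75 it had 3. One run held the posterior HOXC genes HOXC13 (33.7 against 12.02 FPKM in the control), HOXC12 (89.7 against 29.2) and HOXC11 (5.04 against 1.38), with the antisense RNA HOTAIR (6.61 against 2.69). No source used here states that strand was used in counting, so HOTAIR and HOXC11 reads cannot be told apart where they overlap. A second run held FOXN3, EFCAB11 (80.4 against 15.3), TDP1 (37.3 against 11.1) and KCNK13 (26.4 against 2.20). The longest run had 6 genes around RANBP10 (97.4 against 12.3): C16orf86, GFOD2 (74.8 against 14.4), TSNAXIP1, CENPT (57.3 against 25.7) and THAP11. SiFOXM1 was next highest for 4 of the 6 and was itself above the control for RANBP10 (41.2 FPKM, 1.67), GFOD2 (32.5, 1.12) and TSNAXIP1 (0.90), so part of this stretch was higher in both libraries. The run was bordered by ENKD1 (17.0 against 15.3) and NUTF2 (112 against 104), both close to control. Outside these borders RLTPR (5.08 against 0.208), PARD6A (21.5 against 5.01; siFOXM1 9.95) and PSKH1 (27.0 against 11.4) were again the highest of 13 libraries, while ACD (8.02 against 7.06) and CTCF (19.3 against 22.2) differed little from control.

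**Figure D5:**
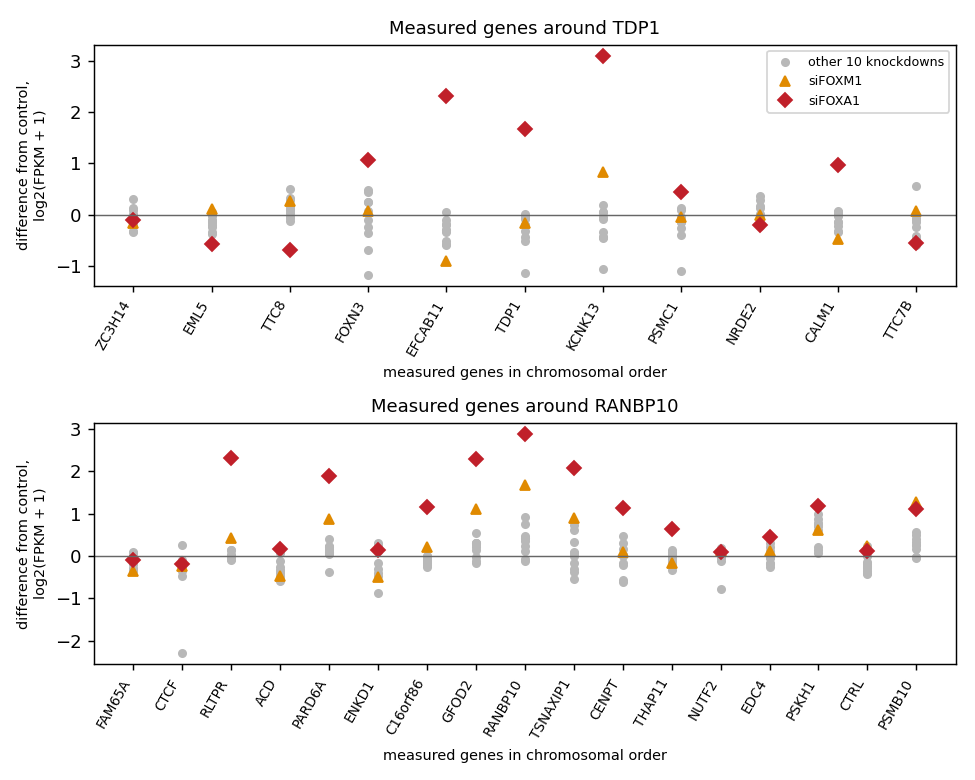
Difference from control on the log2(FPKM + 1) scale for measured genes in chromosomal order around TDP1 (upper) and RANBP10 (lower), with 1 point for each knockdown library (red diamonds siFOXA1, orange triangles siFOXM1, grey circles the other 10). In siFOXA1, KCNK13 (3.10) and RANBP10 (2.89) are the highest points, with adjacent genes also high while CTCF, ACD, ENKD1 and NUTF2 lie near 0.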

How the data were processed

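RNA was sequenced from 13 LNCaP-abl cultures (Illumina TruSeq RNA v2 libraries, HiSeq2000, per the labels' protocols), 1 for each siRNA. The authors deposited 1 value per gene and library on a log2 scale. TopHat, Cufflinks and the genome build hg19 are named in the submitters' processing notes, without versions or settings. The lowest deposited value equals log2 of 0.1, so FPKM was taken as 2 to the power of the value minus 0.1, an inference from the values. An entry at the lowest value is listed at 0. The sorted values of the 13 libraries differed by at most 0.0562 log2 units, so the libraries share nearly 1 distribution of values, which hides any difference in total RNA. Read depth is unknown, and no interval can be given.

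With Python 3.11.15, numpy 2.4.6 and pandas 2.3.3, 761 small RNA entries were left out, genes averaging 0.5 FPKM or more over the 13 libraries were kept, and differences of log2(FPKM + 1) were taken, with a pseudocount of 1. The calculation was tested on simulated data. With 1 library in each group no test was made. Promoter sequences and gene order came from RefSeq (GRCh38.p14), matched by symbol.

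The gene lists, the comparison and the named genes were chosen with earlier results of these data known. Genes named are members of the forkhead and luminal lists, up to 5 with the highest and 5 with the lowest difference of each other list, the 15 highest and 15 lowest of the genes set apart, and siRNA targets. Some of these are not reported here. Another 31 genes were named after their values were seen: BST2, IFI27, IFNL3, OAS1, RSAD2, TRIM25, UGT2B7, UGT2B28, HES1, VIM, KLK2, KLK3, KRT14, SELENBP1 and the genes in and around neighbouring runs. Alternatives were another pseudocount, no filter, quantile normalization, small RNAs kept, centring, the median of the other 11 knockdowns as reference, other folds, siFOXM1 left out, and a shorter promoter window.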

Additional observations from a re-analysis of the deposited data

How the results depend on the processing

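No paired analysis was possible because each group held 1 library, and for the same reason no replicate could be left out. With a pseudocount of 0.1 in place of 1, 963 genes were at least 2-fold higher, 1180 lower, 124 set apart above and 118 set apart below. With the median of 11 knockdowns instead of the control as reference, 393 genes were at least 2-fold lower (379 higher), and of 66 list counts 23 moved by over 1.5 times, among them 18 lower for G1/S and replication, 5 lower for recombination and Fanconi genes, 4 higher for immediate early genes, 1 higher each for p53 targets, glucocorticoid-responsive and interferon signalling genes, 1 lower each for lipid synthesis and hypoxia genes, and 0 higher for core histones and ATF4 response genes. With siFOXM1 left out of the other libraries, 131 genes were set apart above. Chosen after seeing the data, a fold of 1.5 gave 1757 higher and 1717 lower genes, and a fold of 4 gave 79 and 182. Signs changed for the median of androgen-induced genes without the filter (0.12). With the other 11 knockdowns as reference, they changed for the medians of the glucocorticoid list (-0.17), CDK inhibitors (0.052) and growth factors (-0.065). They also changed for the genes CTCF (0.033), GRHL2 (-0.025) and ITGB4 (0.0090). Differences of 145 named genes were compared with the value reported. With the other 11 knockdowns as reference, 96 kept their sign and stayed within 1.5 times (or 0.05). Another 46 kept their sign and moved further, and 3 changed sign. With a pseudocount of 0.1, 126 stayed and 19 moved further. All 145 stayed under the other alternatives, which says little. The filter and small RNAs do not enter a gene's own difference, and quantile normalization and centring hardly shift it. Quantile normalization left both counts at 555 and 666. The promoter shares of gene lists given stayed within their 95% exact (Clopper-Pearson) binomial intervals in the shorter window. One library for each siRNA and an unknown depth limit every value, most of all below 1 FPKM.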

Other observations

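Further gene lists are given here as values. Of 27 measured clustered core histone genes 4 were at least 2-fold higher and 0 lower in siFOXA1 than in the control, with a median of 0.42 (siFOXM1 0.47), and 0 were higher against the median of the other 11 knockdowns. HIST1H2AC was at 101 FPKM against 33.3, above the other knockdowns (40.8 to 67.6). Among 23 genes of the BCL2 family and its partners 3 were at least 2-fold higher. BCL2L11 (BIM), a BH3-only inducer of apoptosis, was at 28.5 against 8.87 FPKM (1.58), above the other knockdowns (7.70 to 13.8), while PMAIP1 (NOXA) at 6.52 against 2.35 and the inhibitor of apoptosis gene BIRC3 at 10.6 against 2.28 lay within the range of the others. BCL2 was at 0.450 against 1.62, but the other 11 libraries were at 0.381 to 0.648, so the control stood apart and not siFOXA1.

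Of 29 p53 target genes 5 were at least 2-fold higher and 0 lower, with a median of 0.47, against 0.11 to 1.12 in the other knockdowns. Against the median of those 11 libraries 1 of the 29 was higher and the list median was 0.05. RRM2B, a ribonucleotide reductase subunit, was at 43.1 FPKM against 20.3 and 10.5 to 27.6 elsewhere. SESN2 (10.3 against 3.63) and RPS27L (117 against 53.7) lay within the others. In the unfolded protein and ATF4 response 3 of 29 genes were at least 2-fold higher (0 against the median of the other 11), and siFOXA1 was the lowest of 13 libraries for 9 of the 29, ATF4 itself among them (205 against 303 FPKM, others 256 to 379). Among 19 growth factor and receptor genes, EGF was at 28.3 against 12.9 FPKM (1.07), above the other knockdowns (9.53 to 20.8), and FGFR3 at 0.419 against 1.92 (-1.04), below them (0.626 to 3.08).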
